A study of Homo sapiens with 6 samples.

Results

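The SR proteins and the hnRNPs are the main families of RNA-binding proteins that steer pre-mRNA splicing. They were examined here as all SRSF genes and all genes whose symbol starts with HNRNP, read-through names excluded, that had at least 10 counts in 2 or more of 6 RNA-seq libraries. The rule kept 32 genes, 11 SRSF and 21 HNRNP, of 19672 in the table. Of the 37 rows of both families, 5 were left out: HNRNPCL1, HNRNPCL2, HNRNPCL3, HNRNPCL4 and SRSF12, none of which passed 3 counts in any library. The threshold lay far from the genes kept, since the least counted, HNRNPA1L2, had 1177 to 1758 counts per library. All 32 were among the 13299 genes tested.

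The cells were SW620, an established human colorectal cancer line, grown under puromycin with a stably integrated lentiviral shRNA vector. The groups were C6 and C3, knockdown lines with an shRNA against DKC1, and scramble, cells with a non-targeting shRNA. Each had 2 libraries. Dyskerin, the DKC1 product, is the pseudouridine synthase of H/ACA ribonucleoproteins, whose small Cajal body members guide modification of the spliceosomal snRNAs. The series names a pair of shRNAs, but the labels used here do not tie either one to C3 or to C6, so the shRNA sequence, the line and the depth of knockdown cannot be told apart. The titles number the libraries of each group as biological replicates. Whether a line is 1 clone, and whether these replicates come from separate cultures, is not given either. The p-values therefore measure only the spread between these libraries.

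Total counts were 26889511 and 28425155 in C6, 31021000 and 28283524 in C3, and 26392238 and 26077966 in scramble. Values are CPM, counts scaled by library size after TMM normalization, and 3 counts correspond to 0.0967 to 0.115 CPM. DKC1 had 70.3 and 67.1 CPM in C6, 144 and 149 in C3, and 320 and 315 in scramble, so C6 held 21.7% and C3 46.3% of the scramble level. For 1 C3 library the genotype tag says control and the title knockdown; its DKC1 level was the 144 CPM, and it was kept in C3. The epithelial genes KRT8, KRT18, KRT19 and EPCAM were at 273 CPM or more in every library, while the intestinal genes CDX2 and LGALS4 did not pass 4.90 CPM in any. Epithelial genes differed between the groups. CDH1 had 175 and 190.2 CPM in C6, 60.3 and 55.9 in C3, and 220.4 and 230.3 in scramble. VIL1 had 136 and 140.0 in C6, 376 and 364 in C3, and 284 and 300.2 in scramble. KRT19 had 1963 and 1934 CPM in C6, 953 and 961 in C3, and 1203 and 1097 in scramble. EPCAM had 303 and 273 CPM in C6, 307 and 321 in C3, and 428 and 389 in scramble. KRT8 and KRT18 were lowest in C3. PTPRC, CD3E, CDH5, COL1A2, COL3A1 and DCN, which define leukocytes, endothelium or fibroblasts, had 0 counts in all 6 libraries. Other genes of these marker lists were detected: the matrix gene LUM had 11.8 and 11.4 CPM in C6, 22.2 and 26.5 in C3, and 16.8 and 15.6 in scramble, while PDGFRB, COL1A1, VWF and LYZ lay between 1.37 and 5.36 CPM. LUM, VIL1 and PDGFRB were highest in C3 and lowest in C6, as were the summed splicing factors described here. KRT19 and VWF had the reverse order, and CDH1 was highest in scramble and lowest in C3. The part of any of these genes in these results was not tested.

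SR proteins join RNA recognition motifs to a domain rich in arginine and serine. They bind exonic enhancers and recruit the spliceosome to nearby splice sites. The hnRNPs coat nascent transcripts and often silence the exons they bind, so that the balance between members of the families helps set exon inclusion. Many genes of both families limit their own output: their protein favours an exon with a premature stop codon, and the resulting mRNA is degraded by nonsense-mediated decay. Gene-level counts do not tell such isoforms from productive ones.

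The 5 promoters printed here belong to the 4 genes with the largest C6 to C3 contrast among those called in opposite directions in the lines, and to SRSF9. SRSF9 was the 1 gene called with the same sign in both lines against scramble. Sequences are from RefSeq, build GRCh38.p14, covering 250 bases before and 50 after the annotated start, 5′ to 3′ on the strand of the gene. Positions are chr2:177212544-177212843 (plus strand) for HNRNPA3, chr17:58007197-58007496 (minus) for SRSF1, chr4:82373942-82374241 (minus) for HNRNPD, chr1:23344235-23344534 (minus) for HNRNPR and chr12:120469699-120469998 (minus) for SRSF9. Capitals mark any match, on either strand, to the E-box CACGTG, the CCAAT box CCAAT, the GC box GGGCGG or the TATA box TATAAA; no marked matches overlap.
HNRNPA3: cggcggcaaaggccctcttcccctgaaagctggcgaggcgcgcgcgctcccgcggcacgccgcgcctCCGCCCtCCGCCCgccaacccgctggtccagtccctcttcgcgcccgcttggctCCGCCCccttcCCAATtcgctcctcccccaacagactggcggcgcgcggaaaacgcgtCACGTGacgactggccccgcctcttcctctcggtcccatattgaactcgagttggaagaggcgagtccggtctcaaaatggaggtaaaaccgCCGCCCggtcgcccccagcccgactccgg
SRSF1: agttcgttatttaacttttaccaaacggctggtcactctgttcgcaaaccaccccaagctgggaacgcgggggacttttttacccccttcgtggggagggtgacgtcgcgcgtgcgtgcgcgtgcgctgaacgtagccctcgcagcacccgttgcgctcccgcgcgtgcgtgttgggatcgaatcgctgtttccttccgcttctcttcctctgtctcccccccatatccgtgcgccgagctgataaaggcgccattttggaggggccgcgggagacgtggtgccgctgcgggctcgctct
HNRNPD: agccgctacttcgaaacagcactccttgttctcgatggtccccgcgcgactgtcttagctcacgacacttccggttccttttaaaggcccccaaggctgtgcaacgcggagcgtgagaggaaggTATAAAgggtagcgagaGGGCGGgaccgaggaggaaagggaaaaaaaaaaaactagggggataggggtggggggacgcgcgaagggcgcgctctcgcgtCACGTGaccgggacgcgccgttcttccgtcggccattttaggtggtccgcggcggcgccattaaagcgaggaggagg
HNRNPR: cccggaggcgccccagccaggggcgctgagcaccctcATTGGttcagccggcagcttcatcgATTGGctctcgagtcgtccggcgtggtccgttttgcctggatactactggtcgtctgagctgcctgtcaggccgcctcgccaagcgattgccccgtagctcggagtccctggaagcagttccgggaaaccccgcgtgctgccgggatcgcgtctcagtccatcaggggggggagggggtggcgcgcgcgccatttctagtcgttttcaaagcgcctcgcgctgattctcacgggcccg
SRSF9: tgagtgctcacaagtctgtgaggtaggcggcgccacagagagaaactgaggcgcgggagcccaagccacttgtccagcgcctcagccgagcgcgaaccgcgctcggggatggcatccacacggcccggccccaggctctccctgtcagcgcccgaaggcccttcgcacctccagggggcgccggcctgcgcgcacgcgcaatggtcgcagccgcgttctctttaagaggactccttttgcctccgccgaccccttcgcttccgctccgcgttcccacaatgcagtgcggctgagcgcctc

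The table of promoters held 30 of the 32 genes; HNRNPA1 and SRSF2 were not matched. The E-box stood in 7 of these 30 promoters (10.1% of the 10666 promoters of genes with counts), the CCAAT box in 15 (36.6%), the GC box in 20 (69.6%) and the TATA box in 5 (6.0%). In the printed windows HNRNPA3 held an E-box, a CCAAT box and 4 GC boxes, HNRNPD an E-box, a GC box and a TATA box, and HNRNPR 2 CCAAT boxes. The windows of SRSF1 and SRSF9 held none of the 4 words. Median GC content was 63.8% in the members' promoters and 65.3% over all, with a median of 30.0 and 26.0 CpG dinucleotides. A match describes these letters and is not a binding site.

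Summed over the 11 SRSF genes, mRNA stood at 2265 and 2110 CPM in C6, 2825 and 2854 CPM in C3, and 2483 and 2396 CPM in scramble. The 21 HNRNP genes summed to 10566 and 10202 CPM in C6, 12807 and 13042 in C3, and 11349 and 11081 in scramble. In both families C3 was highest and C6 lowest, and no library of one group reached into another. Together the 32 genes took 1.26% and 1.21% of all counts in C6, 1.56% and 1.58% in C3, and 1.41% and 1.39% in scramble. In bulk RNA, fewer cells of a kind and less RNA per cell cannot be told apart, and these are shares of each library, not amounts per cell.

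**Figure D1:**
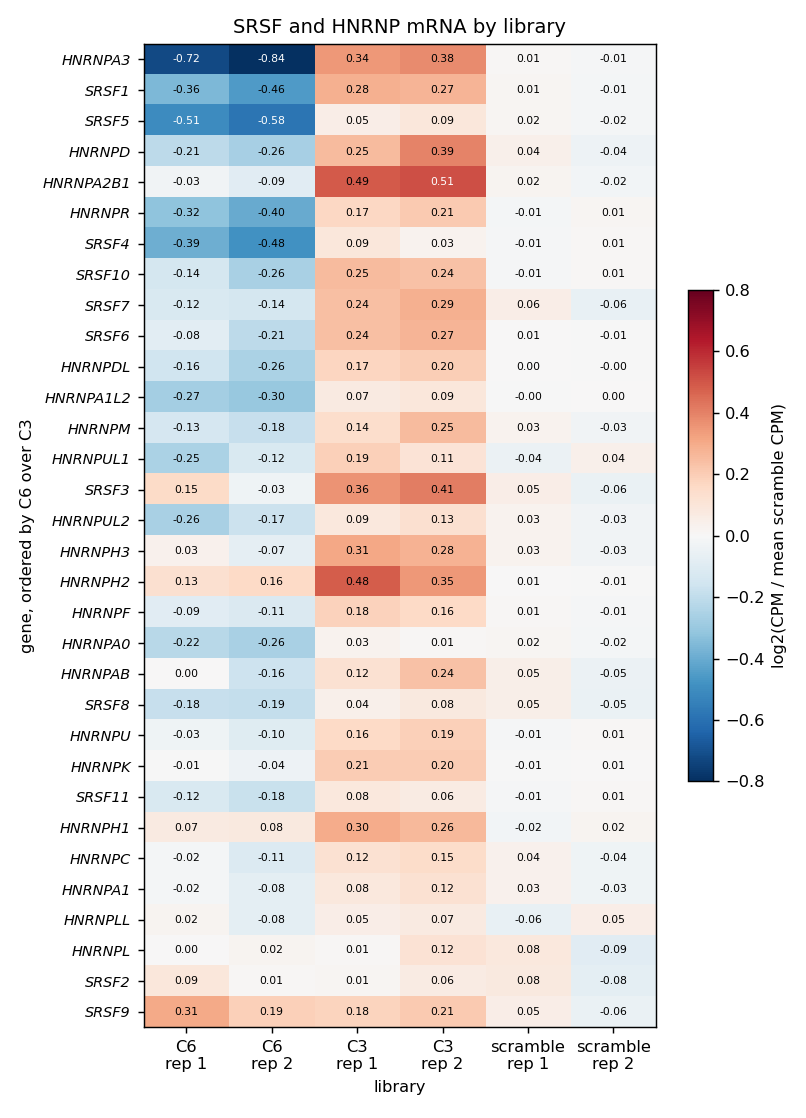
Heat map of log2(CPM / mean scramble CPM) for the 32 genes (rows, ordered by C6 over C3) in each library (columns); numbers in the cells are the values. HNRNPA3 had the lowest values in C6, −0.72 and −0.84, and HNRNPA2B1 the highest in C3, 0.49 and 0.51.

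Per kilobase of exon, the scramble level was highest for HNRNPA1, at 598 CPM per kb, followed by HNRNPK (253), HNRNPF (223), HNRNPA2B1 (180), HNRNPC (176) and SRSF1 (144). HNRNPLL, known for regulating CD45 splicing in lymphocytes, was lowest at 11.4 CPM per kb. The log2 level per kb and the log2 change of C6 over C3 had a Pearson r of 0.00 and a Spearman rho of 0.12 across the 32 genes, which share the same libraries; this describes genes, which are not replicates.

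C6 was set against C3 to ask how the lines, which differ in remaining DKC1, differ in splicing factor mRNA. In the quasi-likelihood test of edgeR, adjusted by Benjamini-Hochberg over 13299 genes, 28 of the 32 genes were lower in C6 (24.1% of all genes tested were) and 0 were higher (25.1%). DESeq2 also gave 28 and 0, and no gene was higher at an unadjusted p under 0.05. Of genes with at least the mean CPM of the least expressed member, 29.0% were lower. The median log2 fold change was −0.32 over the members and 0.0018 over all genes tested. Both C6 libraries lay below both C3 libraries for 29 of the 32 genes (36.6% of all genes). The other 3 were HNRNPL, which binds CA repeats, SRSF2, a founding SR protein also called SC35, and SRSF9.

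**Figure D2:**
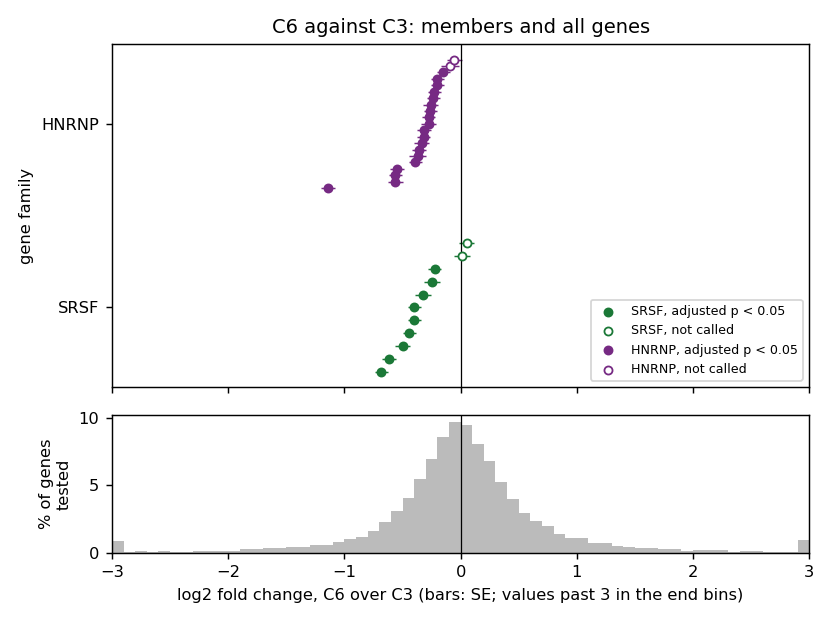
Upper panel, log2 fold change of C6 over C3 (points, bars are SE) for each SRSF and HNRNP gene, filled where the adjusted p was under 0.05; lower panel, share of all 13299 genes tested per bin of the same scale, with values past 3 in the end bins. The 28 filled points all lie left of 0.

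HNRNPA3, an A/B-type hnRNP that binds trafficking elements in mRNA, had the largest contrast. It had 306 and 282 CPM in C6, 641 and 657 in C3, and 509 and 501 in scramble. The 3 groups were fully separated, with scramble in between. Its log2 fold change was −1.14 ± 0.06 for C6 over C3 (SE; adjusted p = 1.04e-09, edgeR), so that C6 held 45.3% of the C3 level. Against scramble it was −0.78 ± 0.06 in C6 (adjusted p = 7.24e-08) and 0.36 ± 0.06 in C3 (adjusted p = 0.000359). The median of the 51-gene window on chromosome 2 that holds HNRNPA3, itself included, was −0.47 in C6 and 0.14 in C3 against scramble. Such a median comes from these same libraries and was removed as a fixed value, so p-values after its removal leave out its uncertainty. With that neighbourhood shift removed, HNRNPA3 stood at −0.31 in C6 (adjusted p = 0.000746), 0.23 in C3 (adjusted p = 0.0119) and −0.53 for C6 over C3 (adjusted p = 3.67e-06). GENCODE names 16 pseudogenes after HNRNPA3, 74 after HNRNPA1, 9 after HNRNPC and 5 after HNRNPK; the sources used here do not say how reads shared with such copies were assigned.

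SRSF1, the founding SR protein and a proto-oncogene, had 361 and 337 CPM in C6, 563 and 558 in C3, and 467 and 458 in scramble. Again C3 was highest and C6 lowest with no overlap. C6 lay below C3 by a log2 fold change of −0.68 ± 0.06 (adjusted p = 1.52e-07, edgeR), below scramble by −0.41 (adjusted p = 3.96e-05), and C3 lay above scramble by 0.28 (adjusted p = 0.00228). Each of these calls for SRSF1 and for HNRNPA3 was made in all 6 fits that left out 1 library.

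In all, 7 genes were lower in C6 and higher in C3 at an adjusted p under 0.05 in each comparison (2.31% of all genes): HNRNPA3, SRSF1, HNRNPD, HNRNPR, SRSF10, HNRNPDL and HNRNPM. The reverse, higher in C6 and lower in C3, was called in 0 (2.62%). The comparisons share the scramble libraries, so the values of each are given side by side. HNRNPD, also known as AUF1, which binds AU-rich elements and speeds mRNA decay, had 286 and 275 CPM in C6, 393 and 433 in C3, and 339 and 321 in scramble. Its relative HNRNPDL had 385 and 359 CPM in C6, 483 and 493 in C3, and 429 and 429 in scramble. For both, the groups were separated in the same order.

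HNRNPR, an hnRNP of the same kind as SYNCRIP, had 356 and 337 CPM in C6, 499 and 514 in C3, and 441 and 449 in scramble. SRSF10, which turns from activator to repressor of splicing when dephosphorylated, had 245 and 226 CPM in C6, 322 and 318 in C3, and 268 and 272 in scramble. HNRNPM, a regulator of splicing in epithelial to mesenchymal transition, had 316 and 305 CPM in C6, 382 and 412 in C3, and 354 and 339 in scramble. No groups overlapped in any of these 3 genes. For the 5 genes after HNRNPA3 and SRSF1, log2 fold changes against scramble ran between −0.36 and −0.16 in C6 and between 0.19 and 0.33 in C3.

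**Figure D3:**
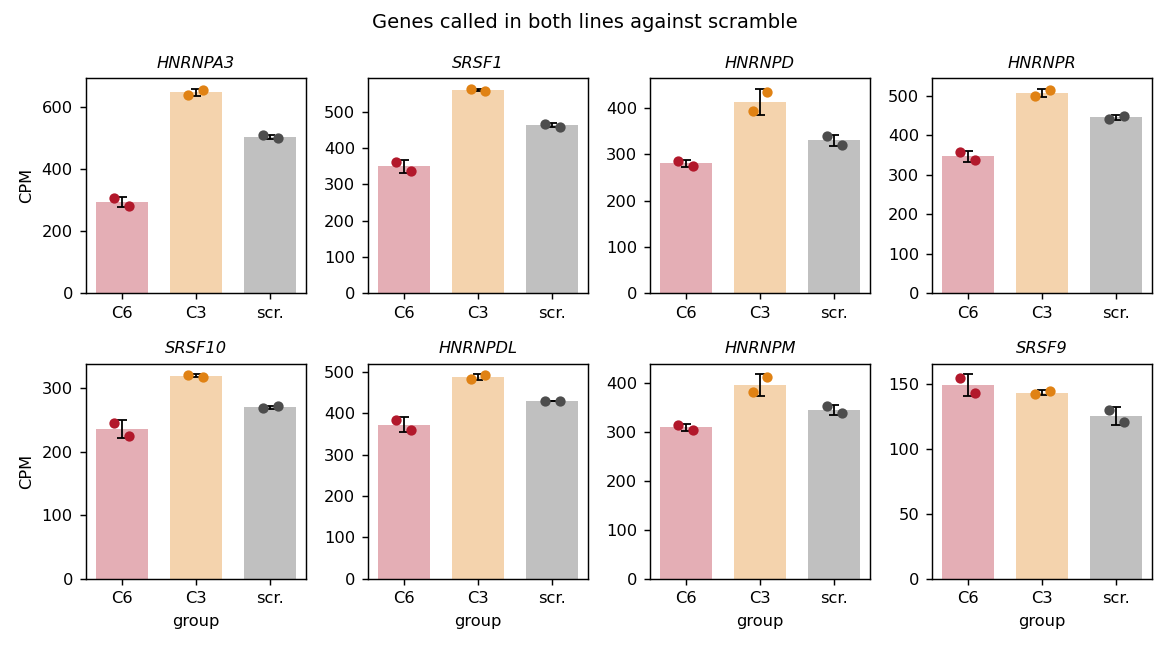
CPM by group for the 8 genes called against scramble in both lines (bars, mean; error bars, SD of 2 libraries; points, libraries; scr., scramble). In 7 panels C6 lies below and C3 above scramble; in the SRSF9 panel both lines lie above it.

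These calls were not equally firm when 1 library was left out. In C6 against scramble the HNRNPM call was lost in all 6 such fits (adjusted p 0.065 to 0.203). HNRNPD lost it without C6 replicate 2 (0.0585) or scramble replicate 1 (0.0711), HNRNPDL without C6 replicate 2 (0.0873), and SRSF10 without C6 replicate 2 (0.12) or scramble replicate 2 (0.0742). In C3 against scramble, HNRNPR and HNRNPDL lost the call whenever a C3 or scramble library was left out (adjusted p 0.0847 to 0.201 and 0.104 to 0.188). HNRNPM lost it without C3 replicate 2 (0.29), scramble replicate 1 (0.06) or scramble replicate 2 (0.169), and SRSF10 without C3 replicate 1 (0.0591) or scramble replicate 1 (0.0553). With upper-quartile scaling the C3 calls of HNRNPDL (0.0863), HNRNPM (0.076) and HNRNPR (0.0792) were lost. With the neighbourhood shift removed, HNRNPM was called neither in C6 (0.102) nor in C3 (0.0551), and HNRNPDL not in C6 (0.0878). The direction held in all of these fits, and all 7 stayed lower in C6 than in C3 at an adjusted p under 0.05 in every one of them.

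C6 against scramble gave 15 lower genes (22.8% of all genes; 22.4% of those expressed at least as highly as the least expressed member) and 1 higher (23.8%). The median log2 fold change was −0.14, against −0.01 over all genes. Both C6 libraries lay below both scramble libraries for 20 of the 32 (36.8%). SR genes made up 6 of the 15 falls and HNRNP genes 9. After HNRNPA3, the largest fall was that of SRSF5, an SR protein also called SRp40, which had 105 and 100.1 CPM in C6, 155 and 160 in C3, and 152 and 148 in scramble. The C6 libraries were far below the other 4, and C3 lay slightly above scramble. The log2 fold change of SRSF5 over scramble was −0.54 ± 0.06 in C6 (adjusted p = 4.14e-06, edgeR) and 0.07 in C3 (adjusted p = 0.423).

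SRSF4, the SR protein SRp75, followed the same pattern, with 86.1 and 80.9 CPM in C6, 120.4 and 115 in C3, and 113 and 114 in scramble. Its log2 fold change over scramble was −0.44 in C6 (adjusted p = 5.86e-05) and 0.06 in C3 (adjusted p = 0.55). It overlaps MECR on the same strand, which had 12.8 and 12.1 CPM in C6, 14.01 and 12.4 in C3, and 12.0 and 10.7 in scramble, and was not called. HNRNPA1L2, a near copy of HNRNPA1 whose counts are uncertain for that reason, had 44.7 and 43.8 CPM in C6, 56.8 and 57.4 in C3, and 53.9 and 54.0 in scramble. Its log2 fold change in C6 was −0.29 over scramble (adjusted p = 0.00428), in a neighbourhood with a median of −0.64. With that shift removed it was 0.35 (adjusted p = 0.00128), so the direction of HNRNPA1L2 turns with this setting. The remaining falls in C6 were those of HNRNPA0 (−0.24), HNRNPUL2 (−0.21), SRSF8, a retrocopy of SRSF2 (−0.19), HNRNPUL1 (−0.19) and SRSF11 (−0.15). With its neighbourhood shift removed, SRSF8 stood at −0.06 in C6 (adjusted p = 0.48). The SRSF11 call was lost in all 6 fits without 1 library (adjusted p 0.0545 to 0.163), and SRSF11 stood at 0.04 with its neighbourhood shift removed (adjusted p = 0.62). SRSF8 lost the call in 5 of these fits, all but that without scramble replicate 2 (adjusted p 0.0583 to 0.21), HNRNPUL1 without C6 replicate 1 (0.207) or scramble replicate 2 (0.186), and HNRNPUL2 without C6 replicate 1 (0.0705) or scramble replicate 1 (0.0692).

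C3 against scramble gave 18 higher genes (12.4% of all genes; 20.6% of those expressed at least as highly as the least expressed member) and 0 lower (11.9%). DESeq2 gave 17 and 0, and no gene was lower at an unadjusted p under 0.05. The rises were 6 of 11 SRSF and 12 of 21 HNRNP genes. The log2 fold change was above 0 for all 32 (50.3% of all genes), with a median of 0.18 and a range of 0.02 to 0.50, against a median of 0.0013 over all genes. With upper-quartile scaling it was above 0 for 31. Both C3 libraries lay above both scramble libraries for 27 of the 32 (31.8%). The count of rises rested on each library compared: it was 11 without C3 replicate 1, 9 without C3 replicate 2, 10 without scramble replicate 1 and 9 without scramble replicate 2.

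HNRNPA2B1, a reader of N6-methyladenosine marks that also sorts microRNAs into exosomes, had the largest rise. It had 1048 and 1003 CPM in C6, 1499 and 1526 in C3, and 1086 and 1053 in scramble. Both C3 libraries stood above the other 4, and the C6 libraries lay below both scramble libraries by less than the test could call. Its log2 fold change was −0.06 in C6 (adjusted p = 0.408) and 0.50 ± 0.06 in C3 (adjusted p = 1.22e-05, edgeR). The median of the 51-gene window that holds HNRNPA2B1 was 0.35 in C6, and with that shift removed the C6 value of HNRNPA2B1 was −0.41 (adjusted p = 3.62e-05).

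SRSF3, the smallest SR protein and an adaptor for mRNA export, had 410.1 and 361 CPM in C6, 475 and 491 in C3, and 383 and 356 in scramble. The C6 and scramble libraries of SRSF3 overlapped, and it rose in C3 by 0.39 (log2, adjusted p = 0.000644) and stood at 0.06 in C6 (adjusted p = 0.482). HNRNPH2, a binder of G-rich tracts, had 96.6 and 98.5 CPM in C6, 124 and 113 in C3, and 88.8 and 88.0 in scramble, so that C3 was highest and scramble lowest with no overlap. Its log2 fold change was 0.14 in C6 (adjusted p = 0.0936) and 0.42 in C3 (adjusted p = 0.000292). HNRNPH2 shares its exons with the read-through gene RPL36A-HNRNPH2, which had 34.7 and 26.0 CPM in C6, 19.0 and 37.3 in C3, and 47.6 and 53.1 in scramble. Added together they had 131 and 125 CPM in C6, 143 and 150 in C3, and 136 and 141 in scramble. In the sum, C6 lay below scramble and C3 above it, where HNRNPH2 alone put scramble lowest. The sum spans a narrower range than HNRNPH2 alone, and how reads divide between them is uncertain.

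All 4 G-tract binders, HNRNPF, HNRNPH1, HNRNPH2 and HNRNPH3, rose in C3, by 0.17 to 0.42, with HNRNPH2 counted without its read-through gene. In C6 none of these 4 passed the test, at −0.10 to 0.14, although HNRNPH2 did with its neighbourhood shift removed (0.25, adjusted p = 0.00771). HNRNPH1 had 362 and 363 CPM in C6, 423 and 410.2 in C3, and 339 and 348 in scramble, with C3 highest, scramble lowest and no overlap. HNRNPH3 had 202 and 188 CPM in C6, 245 and 240.0 in C3, and 201 and 194 in scramble, so C3 stood apart while C6 and scramble overlapped. SRSF7 and SRSF6 rose in C3 by 0.26 and 0.25, and in C6 stood at −0.13 (adjusted p = 0.0819) and −0.14 (adjusted p = 0.0621). With the neighbourhood shift removed, SRSF6 stood at −0.27 in C6 (adjusted p = 0.00225), a call gained, and at 0.11 in C3 (adjusted p = 0.233), a call lost. Upper-quartile scaling also called SRSF6 (0.0131), SRSF7 (0.0176) and HNRNPF (0.0285) lower in C6. The other rises in C3 were those of HNRNPK, a KH-domain binder of C-rich RNA (0.20), and HNRNPU, a nuclear scaffold protein (0.17). HNRNPU stood at 0.08 in C3 with the shift removed (adjusted p = 0.371). Upper-quartile scaling ended the C3 calls of HNRNPF (0.108), HNRNPU (0.109) and SRSF9 (0.105). Left-out libraries ended the C3 calls of HNRNPF, HNRNPK, HNRNPU and SRSF9 in the 4 fits without a C3 or scramble library (adjusted p 0.0556 to 0.275), and those of SRSF6 and SRSF7 without C3 replicate 2 (0.0651 and 0.058) or scramble replicate 2 (0.0529 and 0.0687).

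**Figure D4:**
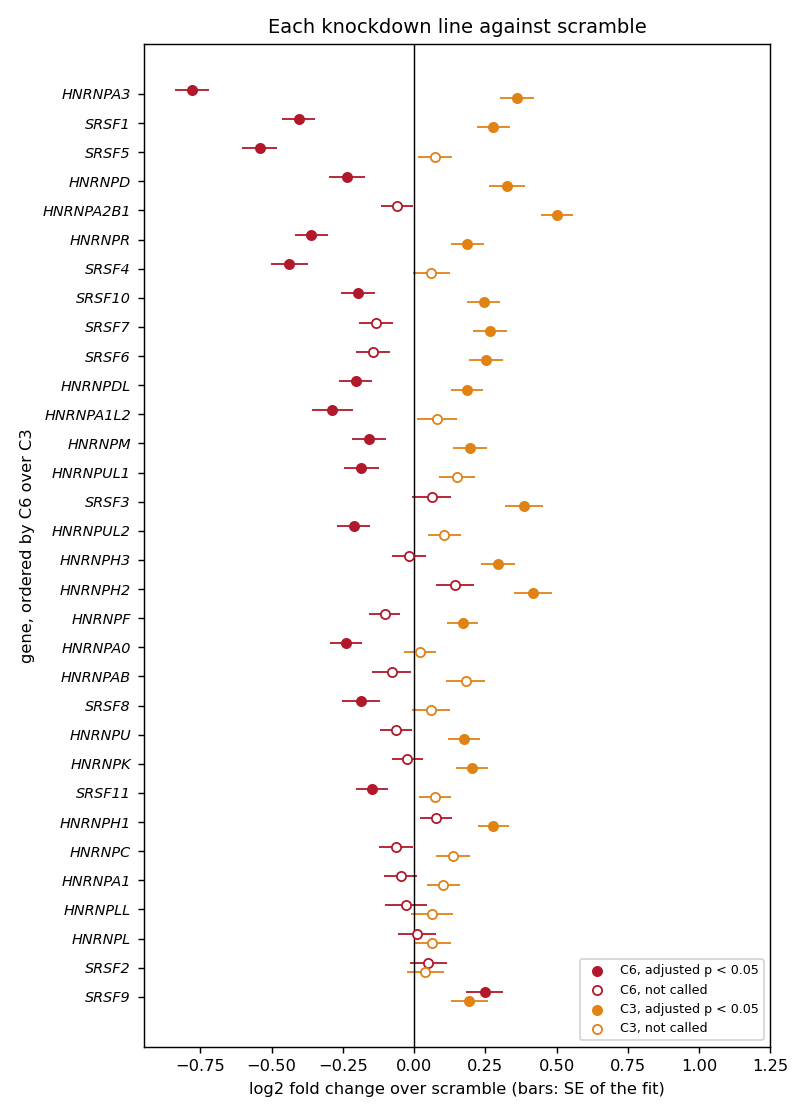
Log2 fold change over scramble of each gene in C6 and in C3 (points; bars are SE of the fit; filled where the adjusted p was under 0.05). All C3 points lie right of 0, and 26 of the 32 C6 points lie left of it.

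SRSF9, the SR protein SRp30c, was the 1 gene of the 32 called with the same sign in both lines (10.0% of all genes were). It had 155 and 143 CPM in C6, 142 and 145 in C3, and 129.9 and 121 in scramble. All 4 knockdown libraries lay above both scramble libraries, and C6 and C3 overlapped. The log2 fold change was 0.25 ± 0.07 in C6 (adjusted p = 0.00607) and 0.19 ± 0.07 in C3 (adjusted p = 0.0423), and C6 over C3 was 0.05 (adjusted p = 0.523). Its C6 call was lost without C6 replicate 1 (adjusted p = 0.0634) or scramble replicate 2 (0.0789), and DESeq2 did not call it in C3 (adjusted p = 0.0642). GATC overlaps SRSF9 on the opposite strand, and stood at 0.28 in C6 (adjusted p = 0.00232) and 0.15 in C3 (adjusted p = 0.115). The sources used here do not say whether reads were counted by strand, and the part of GATC in the SRSF9 values was not tested.

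The mean of C3 and C6 against scramble, which asks for what the lines have in common, gave 5 higher genes (16.6% of all genes) and 3 lower (16.3%). The higher ones were HNRNPH2 (0.28), SRSF3 (0.22), SRSF9 (0.22), HNRNPA2B1 (0.22) and HNRNPH1 (0.18). HNRNPH2 is counted there without its read-through gene, and the sum of both lay below scramble in C6. The lower ones were SRSF5 (−0.23), HNRNPA3 (−0.21) and SRSF4 (−0.19). With the neighbourhood shift removed, HNRNPA2B1 stood at 0.03 (adjusted p = 0.712) and HNRNPA3 at −0.04 (adjusted p = 0.591) in the mean, so both calls ended. Upper-quartile scaling ended that of HNRNPH1 (0.0573). For 7 of these 8 genes a single line carried the call or the lines had opposite signs, so the mean describes neither line; SRSF9 is the exception. When the 4 knockdown libraries were fitted as 1 group, none of the 8 was called (lowest adjusted p 0.288, 1 gene at an unadjusted p under 0.05). Without scramble replicate 2 the rises numbered 3, with SRSF3 (adjusted p = 0.151) and SRSF9 (0.136) no longer called. Without scramble replicate 1 the falls numbered 1, with HNRNPA3 (0.0566) and SRSF4 (0.0824) no longer called. SRSF4 was also lost without C3 replicate 2 (0.071) or scramble replicate 2 (0.113), and HNRNPH1 without C3 replicate 1 (0.0511) or scramble replicate 1 (0.0915).

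Against scramble, 6 genes passed no test: HNRNPA1, HNRNPAB, HNRNPC, HNRNPL, HNRNPLL and SRSF2. HNRNPA1, the classical antagonist of SRSF1 in splice site choice, had 2527 and 2427 CPM in C6, 2709 and 2787 in C3, and 2616 and 2503 in scramble. C6 lay below C3 for HNRNPA1 by a log2 fold change of −0.15 (adjusted p = 0.0408), a call kept in 2 of 6 fits without 1 library and lost without any single C6 or C3 library (0.0691 to 0.239). HNRNPC, which binds uridine tracts and guards against exonization of Alu elements, stood at −0.20 for C6 over C3 (adjusted p = 0.0107), a call lost without C3 replicate 1 (0.0559), C3 replicate 2 (0.0882) or C6 replicate 2 (0.106). SRSF2 had 199 and 188 CPM in C6, 189 and 195 in C3, and 197 and 177 in scramble, with all 3 groups overlapping.

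Other genes of the splicing system were counted from lists chosen by function. Over all genes tested, 23.8% were higher and 22.8% lower in C6 against scramble, 12.4% and 11.9% in C3 against scramble, and 25.1% and 24.1% in C6 against C3. Calls are more frequent among well expressed genes. Of those with at least the mean CPM of the least expressed member, 31.9% were higher and 22.4% lower in C6 against scramble. In C3 against scramble these shares were 20.6% and 9.83%, and in C6 against C3 29.0% each. Among 24 partners of SR proteins with arginine- and serine-rich domains, C6 against scramble gave 4 higher (16.7%) and 12 lower (50%), C3 against scramble 7 (29.2%) and 0, and C6 against C3 2 (8.3%) and 14 (58.3%). LUC7L2, a U1-associated factor, rose in both lines, with 143 and 151 CPM in C6, 147 and 151 in C3, and 98.9 and 98.3 in scramble. BCLAF1, with 193 and 180.1 CPM in C6, 271 and 269.9 in C3, and 272 and 282 in scramble, fell in C6 (log2 fold change −0.57, adjusted p = 1.54e-06). LUC7L3 fell in C6 (log2 fold change −0.49, adjusted p = 1.06e-05) and TRA2A, a sequence-specific activator of splicing, rose in C3 by 0.41 (adjusted p = 0.000813). TRA2B, the relative of TRA2A, was chosen after its values were seen: it stood at −0.33 in C6 (adjusted p = 0.00043) and 0.25 in C3 (adjusted p = 0.00611). Like TRA2B, RBM39 and U2AF2 of this list were called lower in C6 and higher in C3. In the lists below, so were SYNCRIP, TAF15 and TARDBP among the hnRNPs with other symbols, and PRPF31, SF3B4, MBNL2 and UPF3A.

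Among 20 hnRNPs that carry other symbols, C6 against scramble gave 2 higher (10.0%, against 23.8% of all genes) and 10 lower (50%, against 22.8%). C3 against scramble gave 7 higher (35.0%, against 12.4%) and 0 lower (11.9% of all genes), and C6 against C3 1 higher (5.0%, against 25.1%) and 11 lower (55.0%, against 24.1%). RALY, a relative of HNRNPC, had 288 and 289 CPM in C6, 281 and 294 in C3, and 230.5 and 220.1 in scramble, and rose by 0.36 in C6 and 0.35 in C3. CIRBP, a cold-inducible RNA-binding protein, had 131 and 124 CPM in C6, 186 and 194 in C3, and 191 and 189.8 in scramble, and fell in C6 (log2 fold change −0.58, adjusted p = 1.79e-06). PTBP3, a relative of the polypyrimidine tract binding protein PTBP1, rose in C6 by 0.40 (adjusted p = 0.000208) and in C3 by 0.21 (adjusted p = 0.0364). PCBP4, a binder of C-rich RNA, rose in C3 by 0.45 (adjusted p = 0.000341) and stood at 0.06 in C6 (adjusted p = 0.548).

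Of 17 kinases and importers of SR proteins, C6 against scramble gave 5 higher and 5 lower (29.4% each, against 23.8% and 22.8% of all genes). C3 against scramble gave 2 and 3 (11.8% and 17.6%, against 12.4% and 11.9%), and C6 against C3 5 and 3 (29.4% and 17.6%, against 25.1% and 24.1%). These shares lie near those of all genes. SRPK2, a kinase that phosphorylates SR proteins in the cytoplasm, rose in C6 by 0.27 (adjusted p = 0.00705) and in C3 by 0.34 (adjusted p = 0.00298). TNPO3, the importin that carries SR proteins into the nucleus, had 130.4 and 137 CPM in C6, 99.3 and 94.8 in C3, and 93.9 and 98.0 in scramble, and rose in C6 by 0.48 (adjusted p = 2.33e-05). CLK2, a nuclear kinase of SR proteins, fell in C6 (log2 fold change −0.26, adjusted p = 0.0236) and in C3 (−0.35, adjusted p = 0.00874). SRPK3, at under 5 CPM in all libraries, rose by 1.28 in C6 and 0.98 in C3.

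Of 55 core spliceosome genes tested, C6 against scramble gave 16 higher and 11 lower (29.1% and 20%, near the 23.8% and 22.8% of all genes). C3 against scramble gave 14 and 1 (25.5% and 1.8%, against 12.4% and 11.9%), and C6 against C3 8 and 18 (14.5% and 32.7%, against 25.1% and 24.1%). The 25.5% and the 32.7% lie nearer to the 20.6% and 29.0% of genes expressed at least as highly as the least expressed member. The 1.8% stays below the 9.83% of those genes, and the 14.5% lies farther from their 29.0% than from 25.1%. PRPF6, a U5 snRNP protein, had 214 and 217 CPM in C6, 160.1 and 166 in C3, and 138 and 139.7 in scramble. Its rise was 0.63 in C6 and 0.23 in C3, and C6 lay above C3 by 0.40 (adjusted p = 3.32e-05). BUD31 rose in C6 by 0.85 (adjusted p = 1.05e-06) and stood at 0.19 in C3 (adjusted p = 0.108). PLRG1, of the PRP19 complex, rose by 0.44 in C6 and 0.19 in C3, and SNRPC, a U1 snRNP protein, by 0.26 in C6 and 0.38 in C3.

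Among 23 other regulators of alternative splicing that were tested of 31 listed, C6 against scramble gave 5 higher and 6 lower (21.7% and 26.1%, near the 23.8% and 22.8% of all genes). C3 against scramble gave 5 and 4 (21.7% and 17.4%, against 12.4% and 11.9%), and C6 against C3 5 and 7 (21.7% and 30.4%, against 25.1% and 24.1%). ESRP1, an epithelial splicing regulator, had 117 and 116 CPM in C6, 62.4 and 61.9 in C3, and 173 and 177 in scramble, so C3 stood lowest. Its log2 fold change was −0.59 in C6 (adjusted p = 1.34e-06) and −1.50 in C3 (adjusted p = 2.97e-10). KHDRBS3 fell in C6 (log2 fold change −1.87, adjusted p = 1.43e-07), QKI fell in both lines and RBM38 rose in both. Among 15 genes of nonsense-mediated decay and the exon junction complex, C6 against scramble gave 2 higher and 3 lower (13.3% and 20%, against 23.8% and 22.8% of all genes). C3 against scramble gave 1 and 0 (6.7% higher, against 12.4%), and C6 against C3 1 and 2 (6.7% and 13.3%, against 25.1% and 24.1%). EIF4A3, the helicase at the core of the exon junction complex, rose in C6 by 0.27 (adjusted p = 0.00499), and the decay factors UPF1 (log2 fold change −0.25) and SMG5 (−0.19) fell there. The largest fall in C6 was that of UPF3A, named after its values were seen (−0.49, adjusted p = 2.86e-05). In C3, UPF3A stood at 0.24 (adjusted p = 0.0156). MAGOH stood at 0.19 in C6 and 0.22 in C3, neither called.

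**Figure D5:**
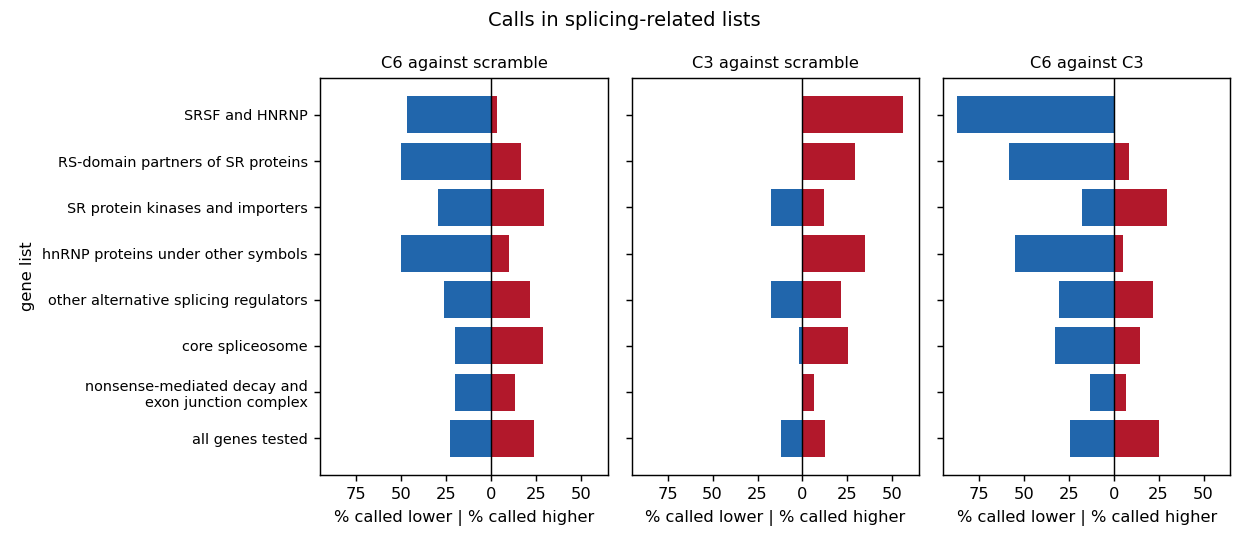
Share of the tested genes of each list called lower (left of 0) or higher (right of 0) in C6 against scramble, C3 against scramble and C6 against C3, beside all genes tested. The SRSF and HNRNP genes have 15 lower and 1 higher in the C6 panel, 0 lower and 18 higher in the C3 panel, and 28 lower and 0 higher in the last.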

How the data were processed

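Poly(A) RNA of 6 libraries was sequenced as stranded paired ends, per the labels' protocols. The authors' deposited table holds whole-number counts for 19672 genes, unscaled, as the file headers and values show. Trimmomatic 0.38, HISAT2 2.1.0, StringTie 2.1.3b and DESeq2 were used with build hg38, per the submitters' processing notes; the sources used here do not say how reads were assigned to genes or whether by strand, and the counts may be sums of StringTie estimates.

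Libraries were grouped by title. Here counts were fitted with edgeR 4.0.16 in R 4.3.3 (TMM, filterByExpr, robust quasi-likelihood; 3 groups, 3 residual degrees of freedom) and p-values adjusted by Benjamini-Hochberg over 13299 genes with a threshold of 0.05. SE is the log2 fold change divided by the root of F. DESeq2 1.42.0, other scalings and filters, a replicate block, fits without 1 library and removal of the median of 51 neighbouring genes were alternatives. Further ones were fits of only the 4 libraries compared, and of the 4 knockdown libraries as 1 group. The window of 51 includes the gene itself, and its median was entered as a fixed offset. Exon lengths, overlaps and pseudogenes came from GENCODE v29; symbols of 19124 genes matched RefSeq.

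Any member could be named. Values per library were given for genes called with opposite signs in the lines, for those called in the mean and in each line with 1 sign, and for the 6 largest changes per comparison; others were added where a result turned on them; each list contributed the 4 genes of smallest p in the mean comparison. Genes of the lists called lower in C6 and higher in C3 were added after their values were seen. Members and lists were chosen with earlier results of these data known.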

Additional observations from a re-analysis of the deposited data

Results flagged for a closer look

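The lines C6 and C3 differed in 28 of the 32 genes, by edgeR's test of C6 over C3 (adjusted p under 0.05 over 13299 genes). Scramble cancels in this comparison, so the shRNA, the line and the depth of knockdown cannot be told apart in it. All 28 differences are negative, and both libraries of C6 lay below both of C3 in each. The log2 difference among the 7 genes called with opposite signs in the lines put HNRNPA3 at −1.14, SRSF1 at −0.68, HNRNPD at −0.56, HNRNPR at −0.55, SRSF10 at −0.44, HNRNPDL at −0.39 and HNRNPM at −0.36. For the other 21 it put SRSF5 at −0.62, HNRNPA2B1 at −0.56, SRSF4 at −0.50, SRSF7 at −0.40, SRSF6 at −0.40, HNRNPA1L2 at −0.37, HNRNPUL1 at −0.34, SRSF3 at −0.32, HNRNPUL2 at −0.32, HNRNPH3 at −0.31, HNRNPH2 at −0.28, HNRNPF at −0.27, HNRNPA0 at −0.26, HNRNPAB at −0.26, SRSF8 at −0.25, HNRNPU at −0.24, HNRNPK at −0.23, SRSF11 at −0.22, HNRNPH1 at −0.20, HNRNPC at −0.20 and HNRNPA1 at −0.15. The largest SD over 2 libraries was 8.95% of its mean, over all 32 genes and the 3 groups.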

How the results depend on the processing

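The main counts kept their direction and stayed within 1.5 times under the scalings, filters and DESeq2, with these exceptions. With the shift of 51 neighbouring genes removed, 3 members (HNRNPA1L2, HNRNPH2 and SRSF9) were higher in C6 than in scramble in place of 1, and 1 was higher in C6 than in C3 in place of 0; HNRNPA1L2 turned to 0.35 in C6 against scramble, 0.21 in the mean and 0.28 in C6 against C3, while 22 members stayed lower in C6 than in C3 and HNRNPA0, HNRNPA1L2, HNRNPC, HNRNPU, SRSF8 and SRSF11 did not. With the 4 knockdown libraries as 1 group, 0 members were called higher and 0 lower. Fits of only the 4 libraries compared gave 18 rises in C3, and 1 rise and 12 falls in C6, against scramble. Leaving out 1 library gave 9 to 19 rises in C3, 9 to 12 falls and 0 to 1 rises in C6, 3 to 6 rises and 1 to 3 falls in the mean, and 24 to 28 falls of C6 against C3; such fits hold 1 library in a group and assume that it varies like the others. Of the members called, 8 of 18 in C3, 7 of 16 in C6, 3 of 8 in the mean and 22 of 28 in C6 against C3 were called in all 6 of these fits; the cause of the losses was not tested. Upper-quartile scaling gave 12 rises in C3 and turned the members' median in the mean comparison to −0.02, and the share of all calls that were higher was 41.7% with it against 51.2% with TMM in C3, 41.6% against 51.1% in C6, and 37.2% against 50.5% in the mean. The replicate numbers were not taken to pair the samples in the main fit. Deviations of same-numbered libraries correlated at −0.095 (C3 and C6), −0.161 (C3 and scramble) and 0.153 (C6 and scramble). These low values cannot show whether the libraries were paired. With a replicate block the counts were 12 rises in C3, 1 rise and 12 falls in C6, 5 and 3 in the mean, and 27 falls of C6 against C3. Calls lost to it in C3 were those of HNRNPDL, HNRNPF, HNRNPM, HNRNPR, HNRNPU and SRSF9 (adjusted p 0.0524 to 0.083). Also lost were HNRNPM, SRSF8 and SRSF11 in C6 (0.062 to 0.0824), and HNRNPA1 in C6 against C3 (0.0876). Depth did not limit the members, whose lowest count was 1177; with 2 libraries a group, small changes may have been missed.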
